A study of Homo sapiens with 6 samples.

Results

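The 9 genes of vitamin A storage and retinoid signalling described here were measured in LX-2 cells, a line established from human hepatic stellate cells. They are 9 of the 27830 genes in the deposited table and were chosen by symbol: the binding and uptake proteins RBP4, CRABP2 and STRA6, the esterifying enzyme LRAT, the oxidising enzyme ALDH1A3 and the nuclear receptors RARA, RARB, RARG and RXRA. All 9 symbols matched 1 row each, and 8 passed the filter on low counts; LRAT did not. The groups were 3 libraries from cells given 10 ng/ml transforming growth factor beta 1 (TGF-β1) for 24 h and 3 libraries from cells left untreated. The treatment is labelled as serum-free, while the medium of the untreated cells over those 24 h is not stated (both were grown in 10% serum), so TGF-β1 and serum withdrawal cannot be told apart. All libraries come from 1 cell line and the labels name no separate cultures, so each p-value is set against a spread between libraries that may be technical.

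Stellate cells are the main vitamin A store of the liver. Retinol arrives bound to retinol-binding protein, is esterified by LRAT and is kept as retinyl esters in lipid droplets, which the cells lose as they activate into myofibroblasts. Retinol can instead be oxidised to retinal and then, by ALDH1A enzymes, to retinoic acid, which CRABP2 carries to RAR and RXR dimers on DNA. RARB, CRABP2, STRA6 and DHRS3 are known retinoic acid target genes.

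Reference DNA with the letters of a retinoic acid response element sits at the start of RARB. RefSeq promoter windows run from 250 bases before to 50 bases after an annotated start (GRCh38.p14), and 1 or more windows were found for all 9 genes. Each was searched on both strands for the nuclear receptor hexamers AGGTCA (found in 13.8% of windows), AGTTCA (10.4%), GGGTCA (14.1%) and GGTTCA (8.62%), and for any pair of them in the same orientation with 1, 2 or 5 bases between. A pair 5 bases apart, the classical spacing for RAR with RXR, was present in 0.0883% of 35116 windows, and pairs 1 and 2 bases apart in 0.131% and 0.0399%. The only pair in the windows of the 9 genes was in RARB, in the window chr3:25428013-25428312 on the plus strand, where GGTTCA and AGTTCA begin 53 bases before the start. The other 3 RARB windows held no pair. CRABP2 (chr1:156705735-156706034, minus strand) and the most upstream STRA6 window (chr15:74212210-74212509, minus strand) are shown as the other retinoic acid targets among the members. They held 1 and 3 single hexamers, and a single hexamer was present in 38.6% of all windows. Hexamers are in capitals, and overlapping or reverse-strand matches are capitalised as they read on the printed strand.
RARB: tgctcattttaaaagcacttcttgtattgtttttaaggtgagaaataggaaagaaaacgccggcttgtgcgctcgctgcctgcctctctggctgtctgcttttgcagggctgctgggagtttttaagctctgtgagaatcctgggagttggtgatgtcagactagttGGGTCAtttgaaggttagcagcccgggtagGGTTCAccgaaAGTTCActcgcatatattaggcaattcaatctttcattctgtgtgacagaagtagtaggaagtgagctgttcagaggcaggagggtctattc
CRABP2: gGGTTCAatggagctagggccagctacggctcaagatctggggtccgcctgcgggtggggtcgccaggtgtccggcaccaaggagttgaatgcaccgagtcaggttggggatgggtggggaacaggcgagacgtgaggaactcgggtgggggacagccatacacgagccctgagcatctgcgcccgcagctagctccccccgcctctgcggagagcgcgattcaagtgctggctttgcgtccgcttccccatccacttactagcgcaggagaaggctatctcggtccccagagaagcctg
STRA6: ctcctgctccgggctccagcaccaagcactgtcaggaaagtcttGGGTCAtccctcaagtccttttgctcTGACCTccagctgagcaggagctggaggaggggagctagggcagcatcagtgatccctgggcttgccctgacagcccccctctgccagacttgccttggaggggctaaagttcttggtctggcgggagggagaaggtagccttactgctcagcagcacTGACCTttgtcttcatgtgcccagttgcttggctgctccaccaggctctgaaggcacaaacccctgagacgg
A match describes letters in a window and not a bound site, and counts were summed over all starts of a gene, so no value below belongs to one promoter.

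Library totals ran from 13866957 to 17694675 counts, and 3 counts, taken as the detection floor, equalled 0.17 to 0.216 CPM, the count scaled to library size, a bound on counting error only. FN1, a textbook TGF-β1 target, averaged 3558 ± 184 CPM with TGF-β1 and 985 ± 68.9 CPM in untreated cells (SD, n = 3 each; edgeR adjusted p = 5.11e-05). Among stellate and fibroblast markers, COL1A1 (1770 ± 155 and 1331 ± 99.7 CPM) and PDGFRB (47.3 ± 5.37 and 47.7 ± 4.26 CPM) were well covered in TGF-β1 and untreated cells, whereas DES had 1 to 5 counts per library. Of the 13 tested markers in that list of 17, COL3A1 alone was called. Summed leukocyte markers had 26.2 to 29.5 CPM with TGF-β1 and 29.6 to 37.1 CPM in untreated cells. These came mostly from CD14, ITGAX and CSF1R, while MARCO had at most 3 counts. Summed epithelial markers had 498 to 672 and 630 to 737 CPM, mostly from KRT8, KRT18 and SOX9, while EPCAM and KRT19 had at most 3 counts. Summed endothelial markers had 430 to 449 and 440 to 452 CPM, mostly from TIE1 and FLT1, while STAB2 had at most 3 counts. The libraries also differed in how counts followed GC content. Over 234 genes with transcript GC up to 35%, the median log2 deviation from the gene mean was 0.64 in TGF-β1 replicate 1, 0.23 in replicate 2 and -0.18 in replicate 3, while the untreated libraries ran from -0.39 to -0.08. Differences below are therefore also given with this trend removed.

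None of the 8 tested genes changed with TGF-β1 by edgeR's quasi-likelihood test at an adjusted p under 0.05, and none had an unadjusted p under 0.05. Over all 14463 tested genes, 0.366% were called, 0.187% higher and 0.18% lower with TGF-β1, and 15.6% had an unadjusted p under 0.05. The edgeR test without the filter, which called 4.46% of all genes, limma voom and limma on log2(FPKM + 1) likewise called 0 of the 8. DESeq2, which called 4.61% of the genes it gave an adjusted p, called 0 of 7 and gave none for RARB (unadjusted p = 0.65). The log2 differences, TGF-β1 minus control, ran from -0.54 to 0.26, with 3 above and 5 below 0 and a median of -0.11, beside a median of 0.01 over all tested genes. With the GC trend removed the median of the members was -0.01 and 0 were called, beside 3.26% of all genes. In bulk RNA, fewer cells expressing a gene and less RNA per cell cannot be told apart.

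**Figure D1:**
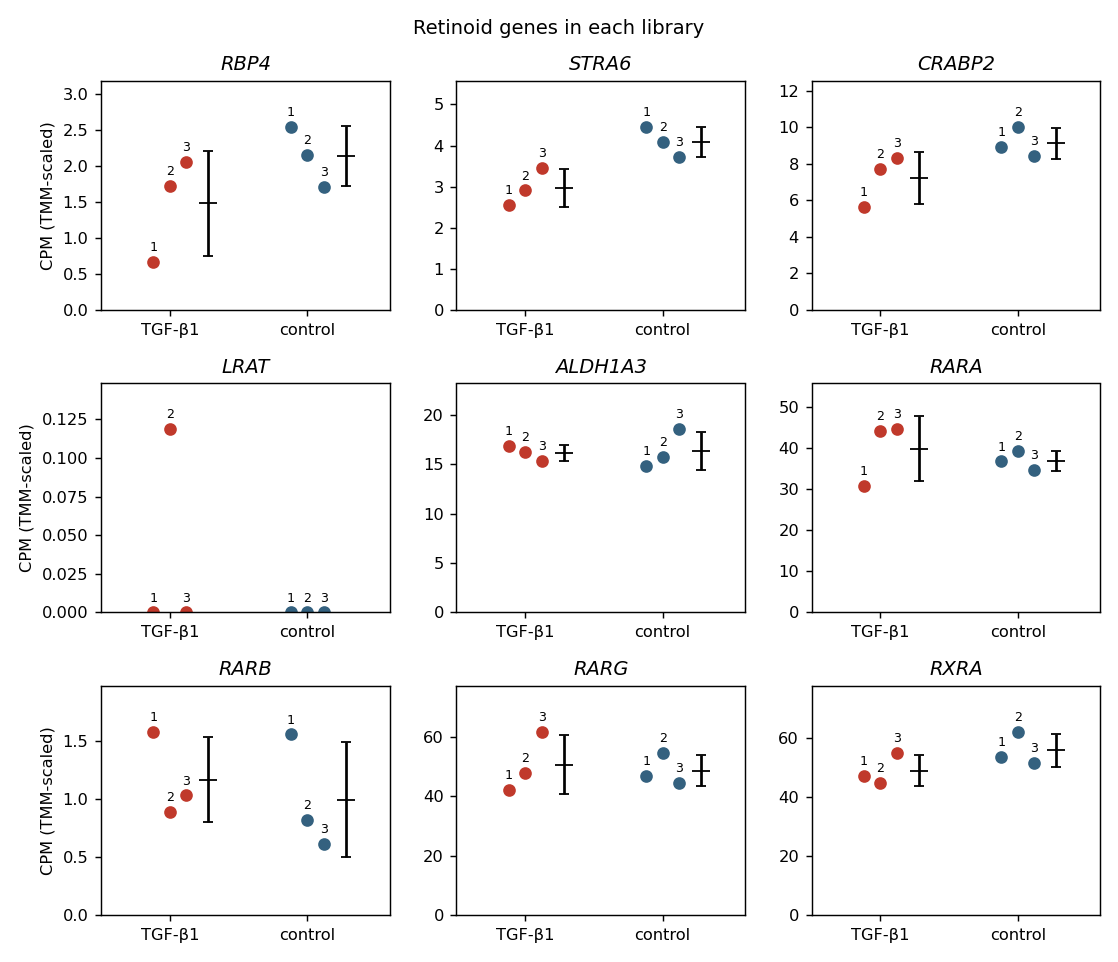
CPM of each retinoid gene in the 3 TGF-β1 libraries (red) and the 3 control libraries (blue), on TMM-scaled library sizes; small digits are replicate numbers, and the bar to the right of each group is mean ± SD (not drawn for LRAT, which had 2 counts in all). STRA6 and CRABP2 are the 2 genes whose groups do not touch, and TGF-β1 replicate 1 is the lowest library for 5 of the 8 tested genes.

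Positions of genes are those of GENCODE 29 on GRCh38. STRA6 (ENSG00000137868; chromosome 15, 74179466 to 74212267, minus strand) encodes the membrane receptor that takes retinol up from its plasma carrier. It had 2.55, 2.91 and 3.46 CPM with TGF-β1, against 4.45, 4.08 and 3.72 CPM in untreated cells. Every TGF-β1 library was below every control library. The fitted ratio of TGF-β1 to control was 0.726, a log2 difference of -0.46 ± 0.23 (SE), with a 95% interval of -0.96 to 0.04 that just includes 0 (edgeR adjusted p = 0.352). CRABP2 (ENSG00000143320; chromosome 1, 156699606 to 156705816, minus strand) encodes the cytosolic protein that delivers retinoic acid to the receptors. It had 5.65, 7.71 and 8.31 CPM with TGF-β1, against 8.91, 10.02 and 8.41 CPM in untreated cells. Its groups did not overlap either, but the nearest libraries, at 8.31 CPM with TGF-β1 and 8.41 CPM untreated, were close, and the log2 difference of -0.34 ± 0.20 (SE; 95% interval -0.79 to 0.11) did not pass (edgeR adjusted p = 0.455). Non-overlapping groups with the lower values under TGF-β1 were found for these 2 members and for 9.12% of all tested genes. 

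RBP4 (ENSG00000138207; chromosome 10, 93591687 to 93601744, minus strand), the plasma carrier of retinol, was a low transcript with 11, 29 and 28 counts in TGF-β1 libraries and 36, 37 and 28 counts in control libraries. At 0.668, 1.72 and 2.06 CPM with TGF-β1 and 2.55, 2.16 and 1.71 CPM in untreated cells, the groups overlapped, and TGF-β1 replicate 1 alone was far below the rest. Its log2 difference was -0.54 ± 0.38 (SE; 95% interval -1.37 to 0.30; edgeR adjusted p = 0.533), and -0.18 without that library. RBP4 is mainly a hepatocyte product in liver. Of 10 hepatocyte markers, 5 had a row, and of these APOA1, APOB and CYP3A4 had at most 3 counts in every library. The summed level of the 5 was 57.3 to 72.5 CPM with TGF-β1 and 50.3 to 54.1 CPM in untreated cells. It came mostly from SERPINA1 (27.7 ± 2.85 and 26.9 ± 4.31 CPM) and CPS1 (37.0 ± 7.09 and 25.6 ± 4.68 CPM). Any hepatocyte part in the RBP4 counts was not tested.

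LRAT (ENSG00000121207; chromosome 4, 154626945 to 154753118, plus strand), the enzyme that makes retinyl esters and a defining transcript of quiescent stellate cells, had 0, 2 and 0 counts with TGF-β1 and 0 counts in each untreated library. All 6 libraries were below the floor of 3 counts, which for this gene equals 0.0225 to 0.0287 FPKM, the deposited measure per unit length, so no fold or test is given, and expression in either group was not detectable at this depth. No exon base of LRAT overlaps another annotated gene.

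ALDH1A3 (ENSG00000184254; chromosome 15, 100877714 to 100916626, plus strand), which converts retinal to retinoic acid, had 16.9, 16.2 and 15.3 CPM with TGF-β1, against 14.8, 15.7 and 18.5 CPM in untreated cells. The groups overlapped with nearly the same mean (16.1 ± 0.795 and 16.4 ± 1.92 CPM), and the 95% interval of the ratio, 0.766 to 1.27, spans 1 on both sides (edgeR adjusted p = 0.968). Of its exon bases in GENCODE 29, 28.6% overlap other annotated genes, 1 on each strand. Neither was found under its GENCODE 29 name among the deposited genes, and other names were not looked up. How many ALDH1A3 counts this overlap touches was not tested.

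RARG (ENSG00000172819; chromosome 12, 53210567 to 53232980, minus strand), a retinoic acid receptor, had 42.3, 48.0 and 61.8 CPM with TGF-β1, against 46.9, 54.6 and 44.5 CPM in untreated cells. RARA (ENSG00000131759; chromosome 17, 40309192 to 40357643, plus strand), another of the family, had 30.7, 44.2 and 44.5 CPM with TGF-β1, against 36.7, 39.2 and 34.6 CPM in untreated cells. In both genes the TGF-β1 libraries spread around the control libraries, with SDs of 10.04 and 7.90 CPM against 5.29 and 2.34 CPM. The ratio of TGF-β1 to control was 1.04 for RARG (95% interval 0.807 to 1.34; edgeR adjusted p = 0.894) and 1.08 for RARA (0.832 to 1.402; edgeR adjusted p = 0.790). RARA overlaps 2 genes of the opposite strand over 17.9% of its exon bases. Of these, RARA-AS1 had 20 to 33 counts per library, against 505 to 745 for RARA.

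RXRA (ENSG00000186350; chromosome 9, 134317098 to 134440585, plus strand), the shared dimer partner of RARs and many other nuclear receptors, had 46.9, 44.8 and 54.7 CPM with TGF-β1, against 53.6, 62.0 and 51.4 CPM in untreated cells. Only TGF-β1 replicate 3 reached the control range, and the ratio was 0.876 (95% interval 0.703 to 1.09; edgeR adjusted p = 0.561). With the GC trend removed its log2 difference was -0.06 in place of -0.19. RARB (ENSG00000077092; chromosome 3, 25174332 to 25597932, plus strand) was the only receptor among the members with a hexamer pair in a searched window. It had 26, 15 and 14 counts in TGF-β1 libraries and 22, 14 and 10 counts in control libraries. Its groups overlapped almost completely, and at these counts the 95% interval of the ratio, 0.634 to 2.25, is the widest of the 4 receptors (edgeR adjusted p = 0.801). It shares 0.757% of its exon bases with TOP2B on the opposite strand, which had 689 to 1879 counts with TGF-β1 and 638 to 802 counts in untreated cells and, like RARB, was highest in TGF-β1 replicate 1; its part in the RARB counts was not tested.

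**Figure D2:**
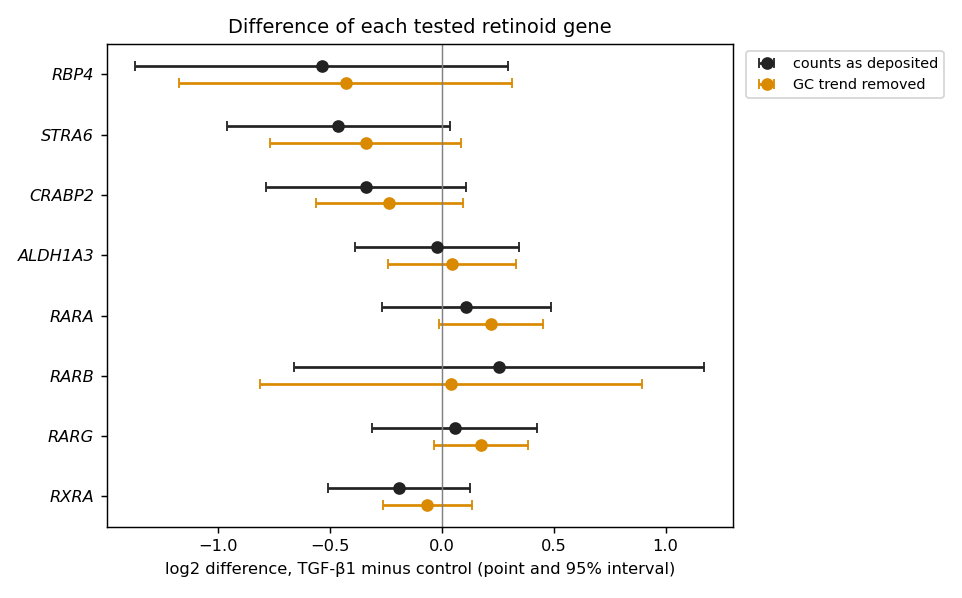
Log2 difference (TGF-β1 minus control) of the 8 tested retinoid genes with its 95% interval, from the counts as deposited (black) and with each library's trend on GC content removed (orange). All intervals include 0; removal of the trend moves RARA to 0.22 and STRA6 to -0.34.

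Transcript GC was 51.3% to 63.0% for 7 of the tested members and 42.6% for RARB, against a median of 48.6% over all tested genes. TGF-β1 replicate 1, whose GC-poor genes read highest, was the lowest of the 6 libraries for 5 of the 8 members (RBP4, CRABP2, STRA6, RARA and RARG) and for 27.2% of all tested genes. RXRA, at 60.6% GC, was lowest in TGF-β1 replicate 2. With TGF-β1 replicate 1 left out, the log2 difference was -0.19 for CRABP2, -0.37 for STRA6, 0.27 for RARA and 0.17 for RARG. In that setting 0 members were called. With the trend removed in all 6 libraries the differences were -0.23, -0.34, 0.22 and 0.17 in the same order.

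Per unit length, RARG and RARA led in TGF-β1 cells, at 9.92 ± 1.76 and 8.43 ± 1.64 FPKM, followed by CRABP2 at 6.70 ± 1.24, RXRA at 4.06 ± 0.340, ALDH1A3 at 3.04 ± 0.205, RBP4 at 1.02 ± 0.489, STRA6 at 0.389 ± 0.0528 and RARB at 0.317 ± 0.1002 FPKM. Untreated cells had 9.40 ± 0.833 FPKM of RARG, 8.35 ± 0.594 of CRABP2, 7.70 ± 0.354 of RARA, 4.57 ± 0.366 of RXRA, 3.05 ± 0.385 of ALDH1A3, 1.45 ± 0.287 of RBP4, 0.528 ± 0.0487 of STRA6 and 0.267 ± 0.136 of RARB (SD, n = 3 each). Among the 3 most abundant, neighbours in rank overlapped in their library ranges in both groups. RARG lay wholly above CRABP2 with TGF-β1 but not in untreated cells, and wholly above RARA in untreated cells but not with TGF-β1. RXRA, ALDH1A3 and RBP4 each lay wholly below the gene before them in both groups. STRA6 and RARB were apart in untreated cells, where STRA6 was above RARB in every library, but overlapped with TGF-β1. The tested genes had a median of 4.16 FPKM, so the 3 most abundant members were above it, RXRA was near it and the other 4 were below.

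**Figure D3:**
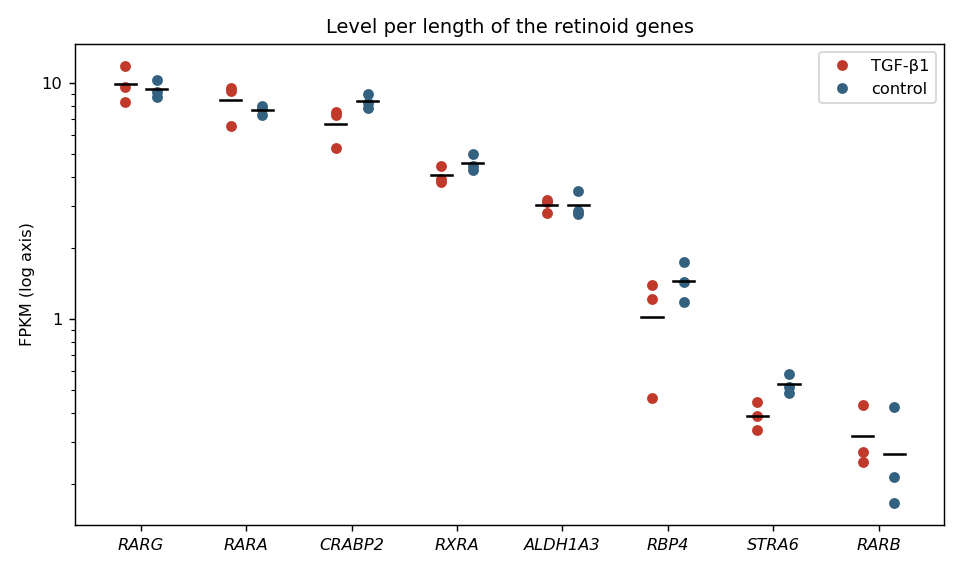
FPKM of 8 retinoid genes on a log axis, ordered by mean level, with each TGF-β1 (red) and control (blue) library as a point and the group mean as a line; LRAT, listed at 0 in 5 libraries, is not drawn. In TGF-β1 libraries the means run from 9.92 FPKM for RARG down to 0.317 FPKM for RARB, and the order of steps is the same in both groups apart from RARA and CRABP2.

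Within the RAR family, the groups overlapped in the share of every member. RARG made up 53.2% ± 3.20 of the summed RAR FPKM with TGF-β1 and 54.1% ± 1.42 in untreated cells, RARA 45.0% ± 3.62 and 44.4% ± 1.03, and RARB 1.79% ± 0.892 and 1.54% ± 0.779. Of the RXR sum, RXRA made up 19.2%, 16.3% and 19.2% with TGF-β1, against 21.1%, 19.6% and 21.4% in untreated cells. These shares did not overlap, though the nearest libraries were close; the difference was not tested. RXRB, a ubiquitous family member, made up most of the rest, with 18.1 ± 1.56 and 17.5 ± 2.50 FPKM (edgeR adjusted p = 0.938). RXRG, with 4 to 8 counts in each library, did not pass the filter.

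The wider pathway was read from 7 lists with 78 genes, of which 63 had a row and 45 were tested. None was called by edgeR, beside 0.366% of all tested genes, and 7 had an unadjusted p under 0.05, beside 15.6%. DESeq2 called 1 (NRIP1), beside 4.61% of the genes it gave an adjusted p. It gave none for RARB, RDH12 and DHRS3. The 45 had a median log2 difference of -0.03, with 5 genes whose TGF-β1 libraries were all above and 8 whose TGF-β1 libraries were all below the controls, beside 7.93% and 9.12% of all tested genes.

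Of 7 tested transport and binding genes, 5 had a negative log2 difference, with a median of -0.34. RBP7, a cellular retinol-binding protein, had 1.73 ± 0.614 CPM with TGF-β1 and 2.36 ± 0.208 CPM in untreated cells (edgeR adjusted p = 0.503), and the scavenger receptor SCARB1 had 83.0 ± 8.37 and 89.7 ± 7.31 CPM (edgeR adjusted p = 0.719). All 5 tested genes of retinyl ester formation and hydrolysis had a negative log2 difference, with a median of -0.22. PNPLA3, a lipase active on retinyl esters in stellate cells, had 6.56, 5.69 and 7.14 CPM with TGF-β1, against 8.98, 9.09 and 9.14 CPM in untreated cells. Its groups did not overlap, and its log2 difference of -0.49 ± 0.19 (SE) had an unadjusted p of 0.0214 and missed the threshold (edgeR adjusted p = 0.236). PNPLA2, the main triglyceride lipase of lipid droplets, had 84.9 ± 10.3 and 106 ± 11.6 CPM, also without overlap (edgeR adjusted p = 0.290). DGAT1, which can esterify retinol as well as diacylglycerol, had 21.8 ± 3.87 and 25.5 ± 3.95 CPM (edgeR adjusted p = 0.605), so it was counted 286 to 437 times per library where LRAT had 0 to 2 counts. PNPLA4, a lipase with activity on retinyl esters, had a log2 difference of -0.09 (edgeR adjusted p = 0.837).

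Among 9 tested oxidoreductases the median log2 difference was -0.02. DHRS3, which reduces retinal back to retinol, had the largest absolute difference of the pathway at -1.39 ± 0.47 (SE), from 0.304, 0.652 and 0.441 CPM with TGF-β1, against 0.707, 1.81 and 1.16 CPM in untreated cells. All TGF-β1 libraries were below the controls, but these are 5 to 31 counts per library (unadjusted p = 0.0115; edgeR adjusted p = 0.194). The retinol dehydrogenase RDH11, one of the most abundant of these enzymes, had 140 ± 8.54 and 127 ± 4.85 CPM (edgeR adjusted p = 0.624). Its TGF-β1 libraries were all above the controls, and its log2 difference of 0.13 was -0.03 with the GC trend removed. RDH14 had 11.8 ± 2.14 and 9.31 ± 0.655 CPM, also with every TGF-β1 library above the controls (edgeR adjusted p = 0.411). ADH5 had 149 ± 3.98 and 163 ± 7.02 CPM, with every TGF-β1 library below the controls (edgeR adjusted p = 0.626). Its log2 difference of -0.13 was -0.39 with the GC trend removed (edgeR adjusted p = 0.164). Of all settings, ADH5 was called only with that removal and without TGF-β1 replicate 3, among 1410 of 14874 genes. For clearance, CYP26B1, which inactivates retinoic acid, had 9.28 ± 0.289 and 8.24 ± 0.744 CPM (edgeR adjusted p = 0.679). Its TGF-β1 libraries were all above the controls, but the nearest, at 9.05 CPM with TGF-β1 and 9.03 CPM untreated, all but touched. CYP26A1 had at most 2 counts.

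Among 13 tested retinoic acid target genes, members included, 9 had a negative log2 difference and the median was -0.18, or -0.07 with the GC trend removed. None of the 3 most abundant passed the test. TGM2, tissue transglutaminase, had 442 ± 84.1 CPM with TGF-β1 and 495 ± 51.8 CPM in untreated cells (edgeR adjusted p = 0.630), and HOXB4 had 88.3 ± 4.15 and 90.3 ± 7.05 CPM (edgeR adjusted p = 0.925). TNFAIP2 had 207, 217 and 220.3 CPM with TGF-β1, against 237, 267 and 227 CPM in untreated cells, so its groups did not overlap (edgeR adjusted p = 0.492).

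Receptor coregulators were the list farthest from 0. Of 11 tested, 9 had a positive log2 difference and the median was 0.47. An unadjusted p under 0.05 was found for 4, beside 15.6% of all tested genes, and 0 were called. NRIP1, a corepressor of ligand-bound nuclear receptors and itself a retinoic acid target, had 63.1, 37.5 and 26.63 CPM with TGF-β1, against 17.0, 13.8 and 26.57 CPM in untreated cells, so that the nearest libraries all but touched (log2 difference 1.15 ± 0.31 SE; edgeR adjusted p = 0.146). NCOA3, a coactivator, had 99.6, 63.2 and 64.4 CPM with TGF-β1, against 50.7, 38.6 and 56.0 CPM in untreated cells (log2 difference 0.65 ± 0.20 SE; edgeR adjusted p = 0.181). MED1, a Mediator subunit, had 134 ± 39.6 and 97.0 ± 26.9 CPM (edgeR adjusted p = 0.343). HDAC3, a histone deacetylase of corepressor complexes, had 97.6 ± 10.6 and 108 ± 6.94 CPM (edgeR adjusted p = 0.615). The median GC content of these 11 was 45.2%, with 38.8% for NRIP1, and TGF-β1 replicate 1 was the highest library for NRIP1 and NCOA3. With the GC trend removed NRIP1 rose by 0.72 (edgeR adjusted p = 0.0424) and NCOA3 by 0.44 (edgeR adjusted p = 0.0497) on the log2 scale, the median of the list was 0.38, and 1.69% of all tested genes rose. With that removal neither was called once TGF-β1 replicate 1 or 2 or control replicate 1 or 2 was left out. Without control replicate 3 only NRIP1 of the pair was called, among 402 of 14831 genes. Without TGF-β1 replicate 3 both were, among 1410 of 14874 genes. On the counts as deposited NRIP1 and NCOA3 were both called without TGF-β1 replicate 3, where 11.2% of all genes were. NRIP1 was also called without TGF-β1 replicate 1, where 324 of 14718 genes were.

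**Figure D4:**
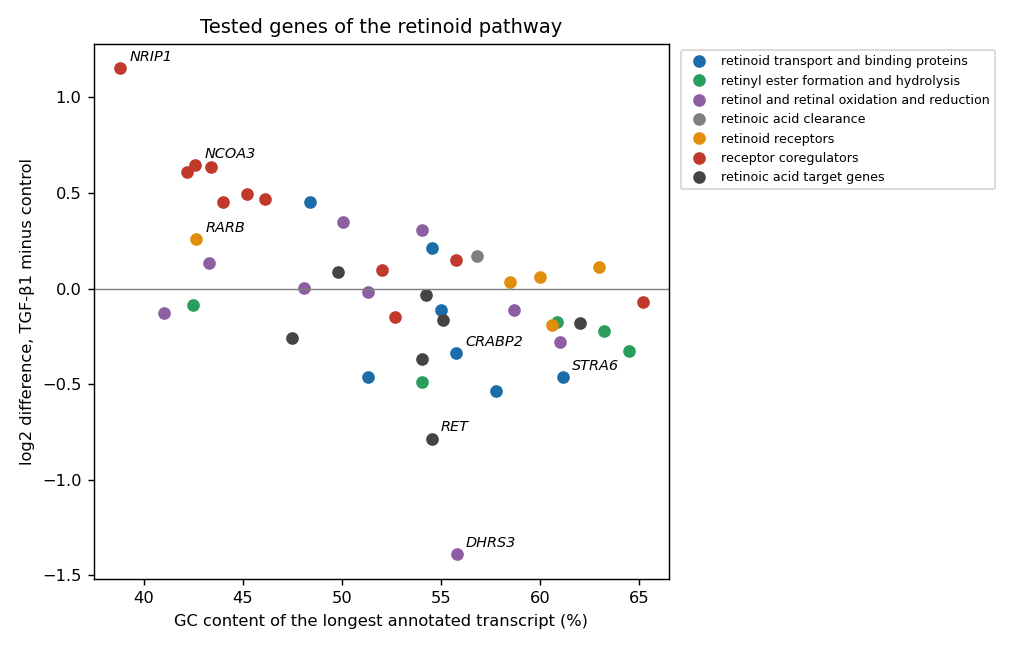
Log2 difference (TGF-β1 minus control, counts as deposited) of the 45 tested retinoid pathway genes against the GC content of the longest annotated transcript, 1 point per gene coloured by list; a gene in several lists has the colour of the first. The coregulators NRIP1, at 38.8% GC and 1.15, and NCOA3 stand at the upper left, and DHRS3, at -1.39, is the lowest point.

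Genes with the most similar pattern over the 6 libraries were looked up among 10643 genes with a symbol and a mean of at least 5 CPM, by Pearson's r of log2(CPM + 0.5). The closest gene was H1-2 for CRABP2, ACP5 for STRA6, CZIB for RBP4, NOL9 for ALDH1A3, PTMS for RARA, XRCC4 for RARB, DKK3 for RARG and KAT8 for RXRA. The r of the closest gene ran from 0.944 for RARB to 0.998 for CRABP2. The points share the libraries' depth and GC trend, and these values describe the 6 libraries only. Among the members themselves, RBP4 and CRABP2 had an r of 0.93, CRABP2 and STRA6 0.88, RBP4 and STRA6 0.86, and RARA and RARG 0.78, with the same points shared.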

How the data were processed

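The 6 libraries of LX-2 cells were RNA sequencing libraries, 3 per group. Total RNA came from a Trizol extraction and the library kit was NEBNext Ultra, per the labels' protocols; that kit keeps no strand information. The submitters' processing notes list HISAT2, HTSeq 0.13.5 and GRCh38, with no role or order; for the annotation release, the sources used here give none. Per the file headers, the deposited table gives a raw read count and an FPKM value per gene and library; the FPKM deposited by the authors implied 1 gene length in all libraries for all 10934 genes checked (relative tolerance 1e-06).

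Counts of all 27830 genes were fitted with edgeR 4.0.16 in R 4.3.3 (quasi-likelihood F test, robust, TMM, filterByExpr, 14463 genes kept, 2 groups, no covariate), with Benjamini-Hochberg adjustment over these and calls at an adjusted p under 0.05. Group levels are CPM on TMM-scaled totals, and levels between genes are FPKM. Intervals are 95%. GC content, coordinates and overlaps come from GENCODE 29 (26968 genes matched). The GC trend was removed by loess (span 0.5) per library as offsets. Alternatives were other scaling, filters, DESeq2 1.42.0, limma 3.58.1, the replicate block and each library left out. Members, lists and alternatives were chosen with earlier results of these data known. Named genes are the members and, per list, called genes, the 3 most abundant and the 2 with the largest absolute difference; other genes are named where a count needed it, and 1 gene that the rule names is not reported here. The libraries of a group differed by 5.20 to 45.7 chi-square per degree of freedom, so none was treated as a duplicate.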

Additional observations from a re-analysis of the deposited data

How the results depend on the processing

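No member was called in any of the 24 alternative settings, which included other scaling, other filters, DESeq2, limma voom, log2(FPKM + 1) and log2(FPKM + 0.1), GC removal and each library left out; DESeq2 gave no adjusted p for RARB. Of the 45 tested pathway genes 0 were called with the counts as deposited. The number was 3 with no filter (NCOA3, NCOR1 and NRIP1) and 1 with DESeq2 (NRIP1). It was 2 with the GC trend removed and 2 with the replicate block (NCOA3 and NRIP1 in both), and 1 with both together (NCOA3). Beside these, 4.46% of all genes were called with no filter and 3.26% with the GC trend removed. DESeq2 called 4.61% of the genes it gave an adjusted p. The replicate block called 527 of 14463 genes, and both together 329. The number of pathway genes called ran from 0 to 3 with each library left out. It was 3 without TGF-β1 replicate 3, where 11.2% of all genes were called. It was 1 without TGF-β1 replicate 1, where 324 of 14718 genes were called. With the GC trend also removed it ran from 0 to 4, with 4 without TGF-β1 replicate 3, where 1410 of 14874 genes were called.

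The replicate numbers are not known to pair the libraries: deviations of same-numbered libraries correlated at 0.26, 0.15 and -0.47 over 13493 genes, and 2 of the 6 libraries correlated best with their own number. With the replicate block 527 genes were called in all, against 53 without it. All-gene calls were 63 with median-ratio size factors, 111 with upper quartile factors, 1240 with no filter, 615 with DESeq2 and 471 with the GC trend removed; single libraries decided much of this, with 4 calls without TGF-β1 replicate 2 and 1671 without TGF-β1 replicate 3.

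Some signs turned, also of differences that were not near 0, such as that of RARB. ALDH1A3 was 6.19e-06 on total counts, 0.00257 on log2(FPKM + 1), 0.00433 on log2(FPKM + 0.1), 0.0456 with the GC trend removed and 0.0482 with the block as well. In those last 2 settings RDH11 was -0.028 and -0.0271, and HOXB4 0.0659 and 0.0669. Over the settings that leave out a library, with and without the GC trend, ALDH1A3 ran between -0.0866 and 0.15, RARB between -0.263 and 0.703, RARG between -0.11 and 0.222, RXRA between -0.283 and 0.00213, SCARB1 between -0.173 and 0.0322, DGAT1 between -0.339 and 0.0356, RDH11 between -0.0926 and 0.161, RXRB between -0.0616 and 0.223, and HOXB4 between -0.0906 and 0.097. The causes of these changes were not tested. Depth limits low genes: LRAT, RARB, RBP4 and DHRS3 each had at most 37 counts in a library.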
